A study of Mus musculus with 3 samples.

Results

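Ribosome biogenesis and RNA polymerase I genes were taken as a list of 39 symbols chosen by function, of which 38 had a row in the table of FPKM values (fragments per kilobase of transcript, scaled to the mapped fragments of the library). The list and the fold thresholds used below were chosen with earlier results of these data known. Counts set beside shares of all genes are therefore descriptions. No row analysed here carried the symbol Noc2l, so that gene is not described. The 38 genes were drawn from 23298 symbols, and all 38 averaged 1 FPKM or more across the libraries, as did 10464 genes in all, called expressed here. The cells were C2C12-hN1∆ECD cells, mouse C2C12 myoblasts carrying human NOTCH1 that lacks its extracellular domain, a receptor that signals without ligand once gamma-secretase cuts it. DAPT blocks gamma-secretase. Cultures were kept in 10 uM DAPT, and the drug was washed out 6 h or 1 h before collection in the cultures of interest, while the control is labelled as not treated. The labels do not say outright that the control stayed in DAPT, nor whether the line is a single clone. No library is titled as washed with DAPT kept in the medium. Removal of DAPT and the washing itself therefore cannot be told apart against the control. There was 1 library of polyadenylated RNA for 6 h of washout, 1 for 1 h and 1 for the control, so no difference below has a replicate check and no test between conditions was possible. The interval after a ratio combines the deposited 95% bounds of both libraries, which describe how well a library measured a gene and not how cultures vary.

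Ribosomes are assembled in the nucleolus around ribosomal RNA that RNA polymerase I transcribes as a long precursor. Small nucleolar ribonucleoproteins (snoRNPs) modify and guide the folding of this precursor, and large sets of assembly factors then cut it and build the small and large subunits with ribosomal proteins. The genes for this machinery are known to be transcribed together in growing cells, MYC being a well-known activator, and their output is high in proliferating myoblasts and declines when these differentiate.

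The 38 genes all stood higher at 6 h than at 1 h, 35 of them exceeded their control level at 6 h, and most lay slightly below it at 1 h. At 6 h against 1 h, all 38 were higher by some amount, where 45.2% of the 10464 expressed genes were. The median difference of log2(FPKM + 1) between these libraries was 0.36 for the 38 genes and -0.03 for all expressed genes. On that scale 26 of the 38 were at least 1.2-fold higher at 6 h (16.2% of all genes) and 0 were at least 1.2-fold lower (22.1%). A difference of at least 1.5-fold was reached by 4 of them, Polr1b, Nop16, Nop2 and Noc3l, beside 4.69% of all genes, and 0 were 2-fold apart in either direction (3.17%). The deposited bounds of the libraries lay apart, with the higher value at 6 h, for 34 of the 38 and for 19.7% of all genes.

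At 6 h against the control, 35 of the 38 genes were higher, against 38.0% of all expressed genes, and the medians were 0.24 for the 38 and -0.06 for all genes. The 3 below the control were Polr1a, Polr1c and Bop1. Of the 38, 19 were at least 1.2-fold higher, where 8.28% of all genes were, and 0 were at least 1.2-fold lower (16.1%). No member was 1.5-fold apart in either direction (5.11% of all genes were), and none 2-fold (1.71%). Bounds lay apart in the higher direction for 31 members and 11.2% of all genes. At 1 h against the control, 32 of the 38 were lower, where 54.5% of all genes were, with medians of -0.12 for the 38 and -0.02 for all genes. At least 1.2-fold lower were 5 of them, Polr1c, Nop2, Polr1b, Nop16 and Tsr1, or 13.2%, a share near the 15.7% of all genes. The 6 genes above the control at 1 h were Ddx10, Imp4, Noc4l, Nop58, Rrp9 and Nol6. In the other direction 0 were at least 1.2-fold higher (12.9% of all genes), and 0 were 1.5-fold (6.54%) or 2-fold (2.14%) apart either way. Bounds lay apart in the lower direction for 18 members, beside 20.1% of all genes. Bounds are narrower for abundant genes, so the same shares were also taken over the 8129 genes averaging 5 FPKM or more, which include all 38. These shares were 21.6% at 6 h against 1 h, 12.9% at 6 h against the control and 21.4% at 1 h against the control. The median of the 38 genes was 44.8 FPKM in the control, so a cut at 5 FPKM does not match their abundance. The comparisons with the control share that library, and the libraries at 1 h and 6 h each enter another comparison as well, so the 3 comparisons are not independent of each other. In a bulk culture, a change in the share of cells that express a gene and a change in RNA per cell cannot be told apart, and FPKM shows only a gene's part of the sequenced RNA.

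**Figure D1:**
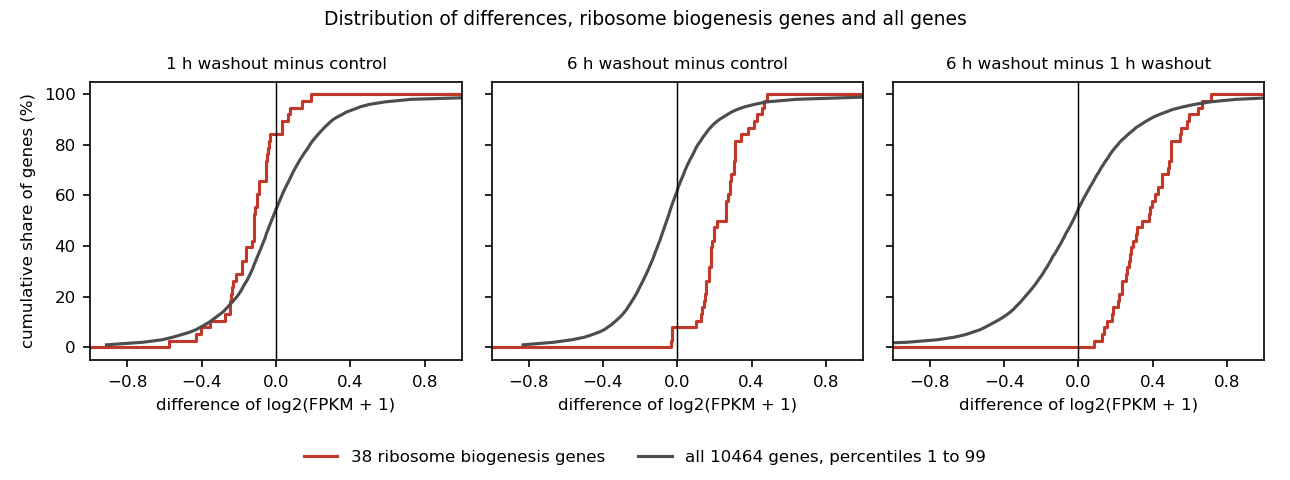
Cumulative share of genes (vertical axis, percent) against the difference of log2(FPKM + 1) (horizontal axis) in the 3 comparisons, for the 38 ribosome biogenesis genes (red) and for percentiles 1 to 99 of all 10464 expressed genes (grey). The red curve lies wholly right of 0 at 6 h against 1 h, with a median of 0.36, and is steeper than the grey curve in all 3 panels.

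Because these genes lay mostly on the same side in each comparison, their promoters were searched for short motifs in the RefSeq promoter table (GRCm38.p6; 250 bases before to 50 bases after each start). Of the 38 genes, 33 matched the table, with 41 promoters, 6 of them from Ubtf, 3 from Wdr12 and 2 from Rrp1b. The letters CACGTG, the E-box that MYC and MAX can bind and which reads the same on both strands, occurred in 8 of the 41 (19.5%). They occurred in 1027 of 9897 promoters of expressed genes (10.4%) and in 2349 of all 32851 promoters (7.15%). GC content was 59.9% in the 41 promoters, 61.2% in those of expressed genes and 53.8% in all. The letters GTGGGAA, core of the motif of the Notch partner RBPJ, occurred on either strand in 4 of the 41 (9.76%), in 5.83% of expressed and in 6.38% of all promoters, with 0 overlaps between the 2 motifs in the 41. These 4 belonged to Polr1c, Rrp9, Tsr1 and Nip7. The 8 genes with CACGTG were Rrn3, Nop2, Tsr1, Wdr43, Imp4, Utp18, Utp20 and Pes1. Their median difference at 6 h against 1 h was 0.26, and that of the 25 members whose listed promoters lack the letters was 0.40. At 6 h against the control these medians were 0.20 and 0.28, and at 1 h against the control -0.05 and -0.12. A match is a string in this window and not a shown binding site. Npm1, Nol6, Rrp12, Bop1 and Fbl had no entry in the table. The promoters of 4 of the 8 are printed from their 5′ end, with CACGTG in capitals: Rrn3, an RNA polymerase I factor whose promoter holds 2 matches, Nop2 and Tsr1, which stood among the lowest members at 1 h, and Wdr43, which stood among the highest at 6 h.
Rrn3: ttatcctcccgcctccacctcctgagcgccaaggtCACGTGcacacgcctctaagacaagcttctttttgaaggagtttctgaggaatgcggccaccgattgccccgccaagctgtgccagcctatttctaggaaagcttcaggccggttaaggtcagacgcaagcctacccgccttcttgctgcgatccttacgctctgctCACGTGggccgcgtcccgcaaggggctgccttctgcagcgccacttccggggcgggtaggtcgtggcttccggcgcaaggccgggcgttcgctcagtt
Nop2: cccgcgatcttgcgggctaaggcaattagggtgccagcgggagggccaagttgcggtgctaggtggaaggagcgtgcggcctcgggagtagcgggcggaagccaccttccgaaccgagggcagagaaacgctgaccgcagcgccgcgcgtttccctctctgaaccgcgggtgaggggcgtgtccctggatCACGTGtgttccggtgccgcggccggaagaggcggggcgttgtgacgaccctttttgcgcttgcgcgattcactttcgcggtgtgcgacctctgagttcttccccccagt
Tsr1: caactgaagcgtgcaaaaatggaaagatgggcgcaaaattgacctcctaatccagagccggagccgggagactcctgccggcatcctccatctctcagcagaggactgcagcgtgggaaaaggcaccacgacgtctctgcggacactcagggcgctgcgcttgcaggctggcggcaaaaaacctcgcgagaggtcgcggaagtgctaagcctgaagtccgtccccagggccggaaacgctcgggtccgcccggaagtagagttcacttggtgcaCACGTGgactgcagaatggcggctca
Wdr43: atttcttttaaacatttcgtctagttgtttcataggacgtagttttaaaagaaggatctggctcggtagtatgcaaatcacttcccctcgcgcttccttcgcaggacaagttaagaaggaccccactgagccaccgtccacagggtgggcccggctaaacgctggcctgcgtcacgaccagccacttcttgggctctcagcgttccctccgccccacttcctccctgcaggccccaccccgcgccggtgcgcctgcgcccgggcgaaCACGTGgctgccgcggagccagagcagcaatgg
On GRCm38.p6 these windows are chr16:13780449-13780748 (plus strand) for Rrn3, chr6:125131633-125131932 (plus strand) for Nop2, chr11:74897830-74898129 (plus strand) for Tsr1 and chr17:71615965-71616264 (plus strand) for Wdr43. In Rrn3 the matches begin 215 and 48 bases before the start site, in Nop2 60 bases before it, in Tsr1 at base 25 and in Wdr43 at base 18, counted from 1 at the start site.

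The RNA polymerase I group held 5 genes. All 5 were higher at 6 h than at 1 h with bounds apart (19.7% of all genes). Against the control at 6 h, the subunit genes of the group did not all stand alike. Polr1b, which encodes a catalytic subunit, had 13.9 FPKM at 6 h, 8.10 at 1 h and 11.0 in the control. Its ratio was 1.72 (1.51 to 1.96) at 6 h over 1 h, the largest among the 38 genes, and 2.98% of all expressed genes had as large a positive difference. Against the control the ratio was 1.26 (1.13 to 1.41) at 6 h and 0.733 (0.644 to 0.835) at 1 h. Polr1c, a subunit that RNA polymerase I shares with RNA polymerase III, had 58.8 FPKM at 6 h, 39.9 at 1 h and 59.9 in the control. It was the lowest of the 38 at 1 h relative to the control, with a ratio of 0.666 (0.600 to 0.739). Its ratio at 6 h over 1 h was 1.47 (1.32 to 1.64). Its FPKM lay outside its own bounds in all 3 libraries, which also held for other members, listed further below. At 6 h over the control its ratio was 0.981 (0.895 to 1.08). Thus Polr1b stood above the control at 6 h, while the interval of Polr1c included 1. The interval also included 1 for Polr1a, the largest subunit, at 17.8 FPKM at 6 h, 15.6 at 1 h and 18.3 in the control, with a ratio of 0.975 (0.905 to 1.05) at 6 h and 0.853 (0.787 to 0.923) at 1 h over the control.

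The other 2 genes of this group encode initiation factors. Rrn3, which brings the polymerase to the promoter of the ribosomal RNA genes, had 34.7 FPKM at 6 h, 31.2 at 1 h and 32.3 in the control, and both intervals of its ratios to the control included 1. Ubtf, an architectural factor that keeps those genes open, had 58.3 FPKM at 6 h, 49.3 at 1 h and 51.3 in the control. Its ratio to the control was 1.14 (1.08 to 1.19) at 6 h and 0.962 (0.914 to 1.01) at 1 h. In the files, Polr1b lies on chromosome 2 at 128926732 to 128952331, Polr1c on chromosome 17 at 46380869 to 46384994 and Polr1a on chromosome 6 at 71859047 to 71929355 (mm9).

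**Figure D2:**
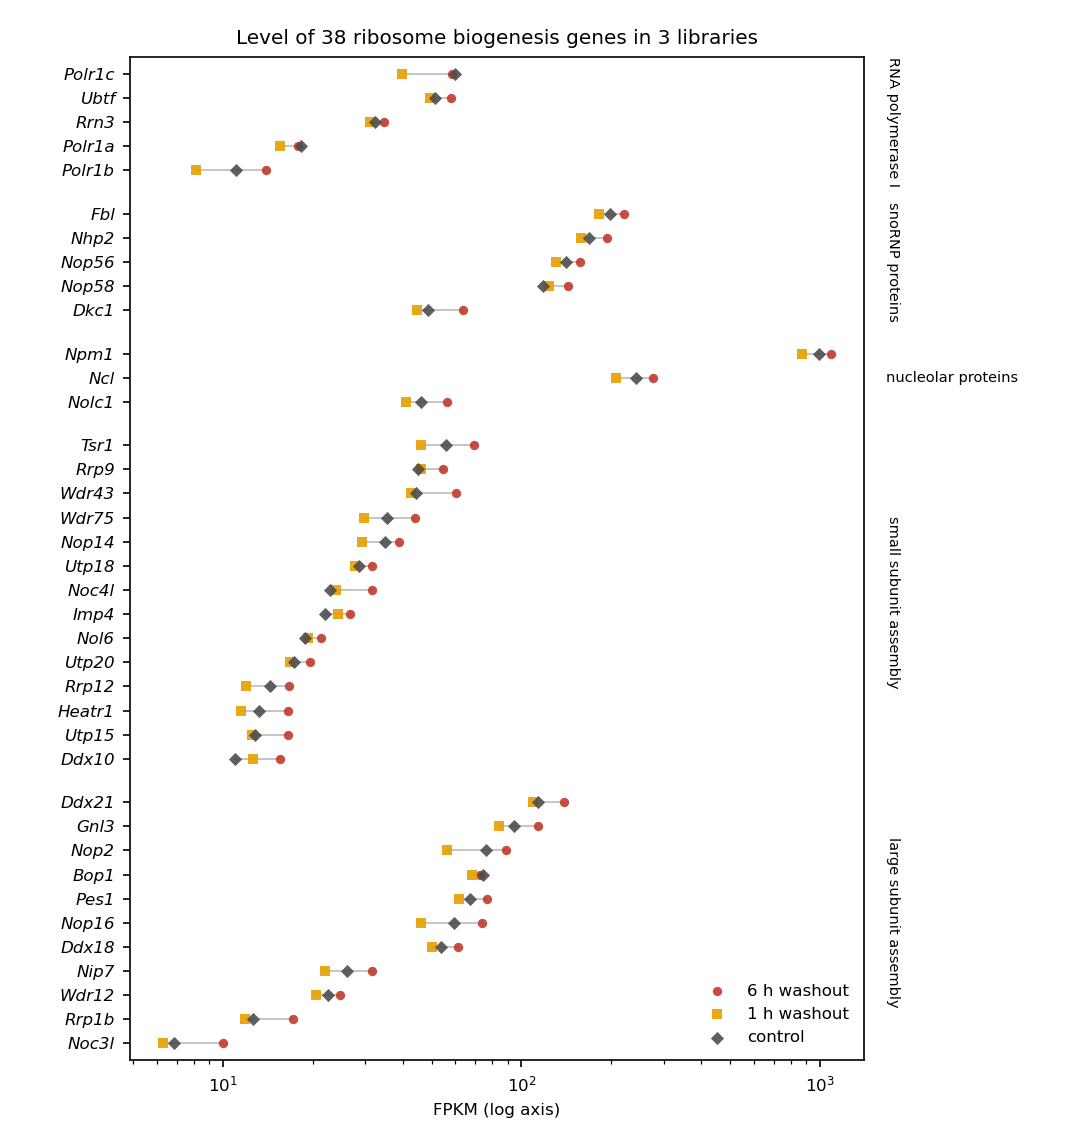
FPKM on a log axis for each of the 38 genes, grouped by role and ordered by level in the control, with the 6 h washout library as red circles, the 1 h library as orange squares and the control as grey diamonds. Npm1 lies highest, at 1086 FPKM at 6 h, Noc3l lowest, at 6.30 FPKM at 1 h, and the red circle lies right of the orange square for every gene.

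The 5 snoRNP protein genes were all higher at 6 h than in the control (38.0% of all genes were). Bounds lay apart for all 5, beside 11.2% of all genes in that direction. Fbl, the ribose methyltransferase of box C/D snoRNPs, had 220.0 FPKM at 6 h, 182 at 1 h and 198 in the control. Nop56, a scaffold protein of the same particles, had 157 FPKM at 6 h, 131 at 1 h and 141 in the control. Nop58, its partner in the particle, differed at 1 h, since it had 144 FPKM at 6 h, 123 at 1 h and 118 in the control. Their ratios at 6 h over the control were 1.11 (1.05 to 1.18) for Fbl, 1.11 (1.07 to 1.16) for Nop56 and 1.22 (1.16 to 1.29) for Nop58. At 1 h over the control the ratio of Nop58 was 1.05 (0.991 to 1.10), with 1 inside the interval, and those of Fbl and Nop56 were 0.920 (0.869 to 0.974) and 0.931 (0.889 to 0.975). Among H/ACA proteins, Dkc1, the pseudouridine synthase, had 63.7 FPKM at 6 h, 44.8 at 1 h and 48.7 in the control. Its ratio of 1.31 (1.22 to 1.40) at 6 h over the control was the highest of the group. Nhp2, another core protein of H/ACA particles, had 194 FPKM at 6 h, 158 at 1 h and 169 in the control, a ratio of 1.15 (1.08 to 1.22) at 6 h over the control.

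The group of nucleolar proteins and a snoRNP chaperone held 3 genes at widely different levels. Npm1, which encodes the nucleolar chaperone nucleophosmin, had 1086 FPKM at 6 h, 874 at 1 h and 991 in the control, and 0.860% of expressed genes were at or above it in the control. Ncl, the gene of the RNA-binding protein nucleolin, had 275 FPKM at 6 h, 207 at 1 h and 243 in the control. Nolc1, whose product escorts snoRNPs, had 56.5 FPKM at 6 h, 41.2 at 1 h and 46.1 in the control. For these 3 genes the 6 h library was highest and the 1 h library lowest, with bounds apart in all 3 comparisons. In the same directions, bounds lay apart for 19.7% of all genes at 6 h against 1 h and 11.2% at 6 h against the control. At 1 h against the control the share was 20.1%. The ratios of the 3 genes at 6 h over 1 h were 1.24 (1.21 to 1.28) for Npm1, 1.33 (1.31 to 1.35) for Ncl and 1.37 (1.29 to 1.46) for Nolc1. At 1 h over the control they were 0.881 (0.860 to 0.904), 0.852 (0.836 to 0.867) and 0.892 (0.836 to 0.953) in the same order.

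Small subunit assembly was represented by 14 genes, which were all higher at 6 h than in the control, 9 of them at least 1.2-fold. Of all genes, 38.0% were higher and 8.28% at least 1.2-fold higher. At 1 h against the control 9 were lower and 5 higher, where 54.5% of all genes were lower. Their median of -0.04 lay near the -0.02 of all genes. Utp15, Heatr1, Wdr43 and Wdr75 encode proteins of a subcomplex that binds the precursor RNA early and is tied to its transcription. Wdr43 had 60.2 FPKM at 6 h, 42.8 at 1 h and 44.5 in the control, and Wdr75 had 44.1 FPKM at 6 h, 29.7 at 1 h and 35.4 in the control. Heatr1 stood at 16.6 FPKM at 6 h, 11.5 at 1 h and 13.2 in the control, and Utp15 at 16.5 FPKM at 6 h, 12.5 at 1 h and 12.8 in the control. The 4 genes of this subcomplex were 1.35-fold (1.28 to 1.43), 1.25-fold (1.16 to 1.35), 1.26-fold (1.16 to 1.36) and 1.29-fold (1.16 to 1.43) higher at 6 h than in the control, in the order Wdr43, Wdr75, Heatr1 and Utp15. At 1 h over the control their ratios were 0.962, 0.841, 0.873 and 0.974 in that order, and the intervals of Wdr75 and Heatr1 lay below 1 (0.774 to 0.913 and 0.805 to 0.948).

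The largest ratios to the control at 6 h in this group belonged to Ddx10 and Noc4l. Ddx10, a DEAD-box RNA helicase gene, had 15.5 FPKM at 6 h, 12.7 at 1 h and 11.0 in the control, a ratio of 1.42 (1.24 to 1.61) at 6 h. It was also the highest of the 38 genes at 1 h over the control, at 1.15 (0.999 to 1.33). Noc4l, whose yeast counterpart works in a complex with that of Nop14, had 31.6 FPKM at 6 h, 24.0 at 1 h and 22.8 in the control, a ratio of 1.39 (1.24 to 1.55) at 6 h. Nop14 itself had 38.9 FPKM at 6 h, 29.3 at 1 h and 34.9 in the control. So at 1 h the ratio to the control was 1.05 (0.936 to 1.19) for Noc4l and 0.838 (0.772 to 0.910) for Nop14, and the intervals of these partners did not overlap.

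Tsr1, a factor of late small subunit maturation, had 69.5 FPKM at 6 h, 46.1 at 1 h and 56.0 in the control. Its ratio was 1.51 (1.43 to 1.59) at 6 h over 1 h, and at 1 h over the control 0.824 (0.779 to 0.872), the lowest in the group. Rrp12, which takes part in export of the subunits, had 16.7 FPKM at 6 h, 11.96 at 1 h and 14.4 in the control. These late-acting genes were thus lower at 1 h and higher at 6 h than in the control, with bounds apart each time (20.1% and 11.2% of all genes). Differences were smaller for Imp4, Nol6, Utp18, Utp20 and Rrp9, components of the early processome, whose ratios at 6 h over 1 h lay between 1.10 (Imp4, 0.983 to 1.22) and 1.18 (Rrp9, 1.07 to 1.30). Imp4 had 26.6 FPKM at 6 h, 24.3 at 1 h and 22.0 in the control, and Nol6 21.3 FPKM at 6 h, 19.3 at 1 h and 18.8 in the control. Rrp9 had 54.6 FPKM at 6 h, 46.2 at 1 h and 45.1 in the control, while Utp18 had 31.6 FPKM at 6 h, 27.7 at 1 h and 28.5 in the control, and Utp20 19.6 FPKM at 6 h, 16.8 at 1 h and 17.2 in the control. Bounds at 6 h and 1 h overlapped for Imp4, Nol6 and Utp18.

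**Figure D3:**
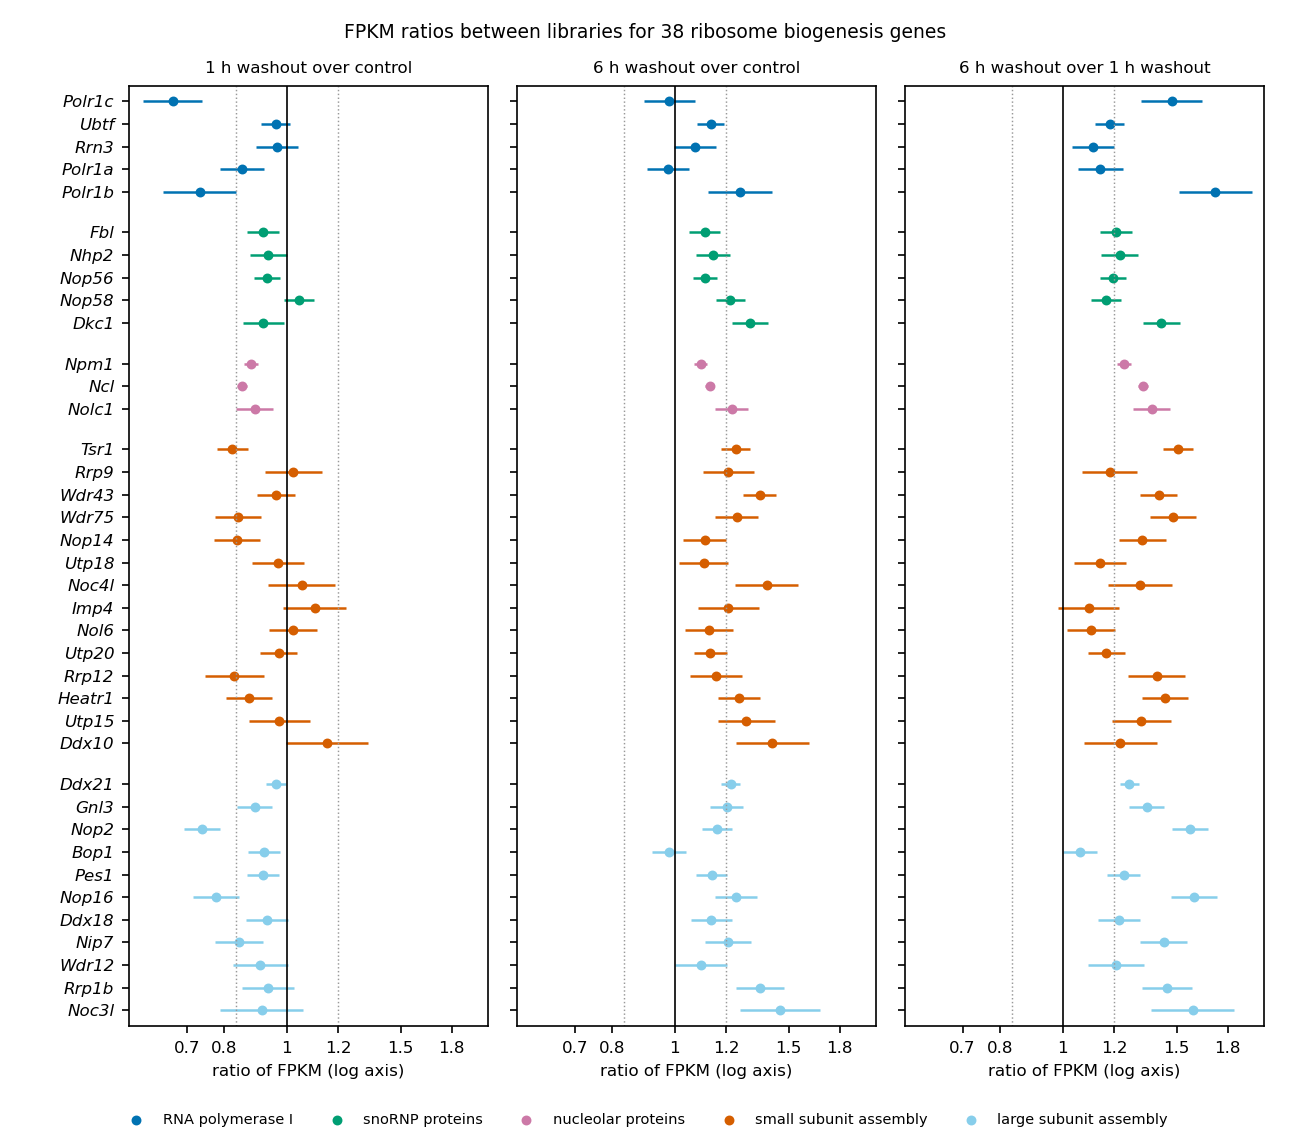
Ratio of FPKM (log axis) for the 38 genes at 1 h over the control, 6 h over the control and 6 h over 1 h, with bars for the interval from the deposited bounds, colours for the role and dotted lines at 1.2-fold in each direction. Polr1c, at 0.666, lies furthest left at 1 h over the control, and all 38 points lie right of 1 at 6 h over 1 h.

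Large subunit assembly was represented by 11 genes with a row. Each of the 11 stood above its 1 h level at 6 h (45.2% of all genes did), 9 of them at least 1.2-fold (16.2%). All 11 were lower at 1 h than in the control, beside 54.5% of all genes. Nop2, an RNA methyltransferase gene, had 88.6 FPKM at 6 h, 56.3 at 1 h and 76.2 in the control. It was 1.57-fold (1.48 to 1.68) higher at 6 h than at 1 h, and its ratio at 1 h over the control was 0.739 (0.693 to 0.788). Nop16, an early assembly factor gene, had 73.7 FPKM at 6 h, 46.1 at 1 h and 59.3 in the control, with ratios of 1.60 (1.47 to 1.73) at 6 h over 1 h and 0.777 (0.716 to 0.844) at 1 h over the control. Noc3l was the least abundant of the 38 genes and had the largest ratio to the control at 6 h, 1.45 (1.26 to 1.68), with 10.0 FPKM at 6 h, 6.30 at 1 h and 6.88 in the control. As large a positive difference from the control at 6 h was found for 3.05% of expressed genes.

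Pes1, Bop1 and Wdr12 encode the PeBoW complex, which is needed to process the large subunit RNA, and they did not stand alike at 6 h. Pes1 had 76.7 FPKM at 6 h, 61.7 at 1 h and 67.2 in the control, a ratio of 1.14 (1.08 to 1.21) at 6 h over the control. Wdr12 had 24.7 FPKM at 6 h, 20.5 at 1 h and 22.5 in the control, a ratio of 1.10 (1.00 to 1.2). Bop1 had 72.7 FPKM at 6 h, 68.4 at 1 h and 74.3 in the control, a ratio of 0.979 (0.922 to 1.04), and was the member with the smallest ratio at 6 h over 1 h, 1.06 (1.00 to 1.13). The Bop1 locus overlaps those of Scx, at 18.0 FPKM at 6 h, 35.1 at 1 h and 30.7 in the control, and of Mroh1. Whether fragments were shared between them was not tested.

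Among the remaining large subunit genes, Ddx21 and Gnl3 were the most abundant. Ddx21, a helicase that also acts with RNA polymerase I, had 139 FPKM at 6 h, 109 at 1 h and 114 in the control. Gnl3, the gene of the GTPase nucleostemin, had 113 FPKM at 6 h, 84.1 at 1 h and 94.3 in the control. Both stood above the control at 6 h, with ratios of 1.22 (1.18 to 1.26) for Ddx21 and 1.2 (1.13 to 1.28) for Gnl3. Rrp1b had 17.1 FPKM at 6 h, 11.8 at 1 h and 12.6 in the control, a ratio of 1.36 (1.25 to 1.48) at 6 h over the control. Nip7 had 31.6 FPKM at 6 h, 22.0 at 1 h and 26.1 in the control, and Ddx18, another DEAD-box helicase gene, 61.4 FPKM at 6 h, 50.2 at 1 h and 54.0 in the control. In each of these 3 genes the 6 h library was the highest, and the 1 h library the lowest.

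A wider list of 124 other ribosome biogenesis genes, chosen by role, had medians of the same sign as the 38 genes and nearer to 0. Of 123 expressed genes, 108 stood above their 1 h level at 6 h (45.2% of all genes did), 54 of them at least 1.2-fold (43.9%, beside 16.2% of all genes). At least 1.2-fold lower were 3 (22.1% of all genes), and the median was 0.24. Set against the control, 106 were higher at 6 h (38.0% of all genes were), 34 by 1.2-fold or more (27.6%, beside 8.28% of all genes). Lower by as much were 2 (16.1% of all genes), with a median of 0.17. At 1 h against the control 81 were lower (54.5% of all genes were), 16 by 1.2-fold or more (13.0%, below the 15.7% of all genes). Higher by as much was 1, Utp3, beside 12.9% of all genes (median -0.05, beside -0.02 for all genes). By role, the medians at 6 h against the control were 0.22 for 49 large subunit factors, 0.19 for 11 snoRNP proteins, 0.17 for 40 small subunit factors, 0.13 for 9 RNA polymerase I factors and 0.06 for 14 exosome genes. The highest of the wider list at 6 h over the control was Mki67ip, with 69.1 FPKM at 6 h against 49.6 FPKM in the control, a ratio of 1.39 (1.29 to 1.5). It was followed by Nmd3, which encodes an export adaptor of the large subunit, with 53.7 FPKM at 6 h against 39.4 FPKM in the control, and by Mphosph6, an exosome cofactor gene, with 37.0 FPKM at 6 h against 27.4 FPKM in the control. Lowest were Znhit3 and Pih1d1, which encode snoRNP assembly factors, with ratios of 0.743 (0.626 to 0.883) and 0.796 (0.694 to 0.912), and Rrp36, at 0.837 (0.714 to 0.982).

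At 6 h against 1 h the highest gene of the wider list above 0 in both libraries was Pwp2, a small subunit factor, with 30.9 FPKM at 6 h against 18.1 FPKM at 1 h, a ratio of 1.70 (1.56 to 1.86). Rrp36, Znhit3 and Ddx55 were lowest, with ratios of 0.763 (0.651 to 0.894), 0.767 (0.643 to 0.916) and 0.763 (0.632 to 0.921). At 1 h over the control Nol9, a kinase gene of large subunit RNA processing, had a ratio of 0.639 (0.593 to 0.690), with 19.5 FPKM at 1 h against 30.5 FPKM in the control. Utp3, Mphosph6 and Ngdn were the highest there, with ratios of 1.22 (1.10 to 1.35), 1.2 (1.04 to 1.39) and 1.18 (1.02 to 1.36). The exosome genes Exosc6 and Exosc9 were listed at 0 at 1 h. In the other libraries Exosc6 had 38.2 FPKM at 6 h against 35.7 in the control, and Exosc9 19.3 FPKM at 6 h against 18.1 in the control. An exact 0 in such a table can be a failed estimate, so no ratio is given. Both genes are nonetheless part of the counts and medians of the wider list. They are among the 54 at least 1.2-fold higher at 6 h against 1 h and the 16 lower at 1 h against the control. Taf1a was listed at 0 in all 3 libraries.

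Other polymerases and the ribosomal proteins themselves were set beside these genes, and the differences between lists were not tested. The 13 RNA polymerase II subunits include Polr2e, Polr2f, Polr2h, Polr2k and Polr2l, which RNA polymerases I and III share. This list is therefore not separate from RNA polymerase I. The 13 had medians of -0.002 at 6 h against 1 h and -0.05 at 6 h against the control. In either comparison 0 of 13 reached 1.2-fold higher, beside 16.2% and 8.28% of all genes. Polr2a was past 1.2-fold lower at 6 h against 1 h. At 1 h against the control the median of the 13 subunits was 0.01, and Polr2a was the 1 subunit at least 1.2-fold higher. Of the 11 RNA polymerase III subunits, 8 were higher at 6 h than in the control, beside 38.0% of all genes. Medians of the 11 were 0.06 at 6 h against 1 h, 0.18 at 6 h against the control and 0.01 at 1 h against the control. The median of 0.18 lay nearer to that of the biogenesis genes (0.24) than those of the other comparison lists did. Of 78 expressed cytosolic ribosomal protein genes, 76 were lower at 1 h than in the control (54.5% of all genes were). Their median of -0.13 was close to the -0.12 of the 38 biogenesis genes. At 6 h against the control the median of the 78 was -0.02, against 0.24 for the biogenesis genes. At least 1.2-fold higher was 1 of 78 (8.28% of all genes). That ribosomal protein gene, Rpl26, was listed at 0 in the control. At 6 h against 1 h 77 of the 78 were higher (45.2% of all genes were), with a median of 0.11. The exception, Rps27, had 238 FPKM at 1 h and was listed at 0 at 6 h and in the control. The 76 mitochondrial ribosomal protein genes had medians of 0.003 at 6 h against 1 h, -0.03 at 6 h against the control and -0.06 at 1 h against the control.

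**Figure D4:**
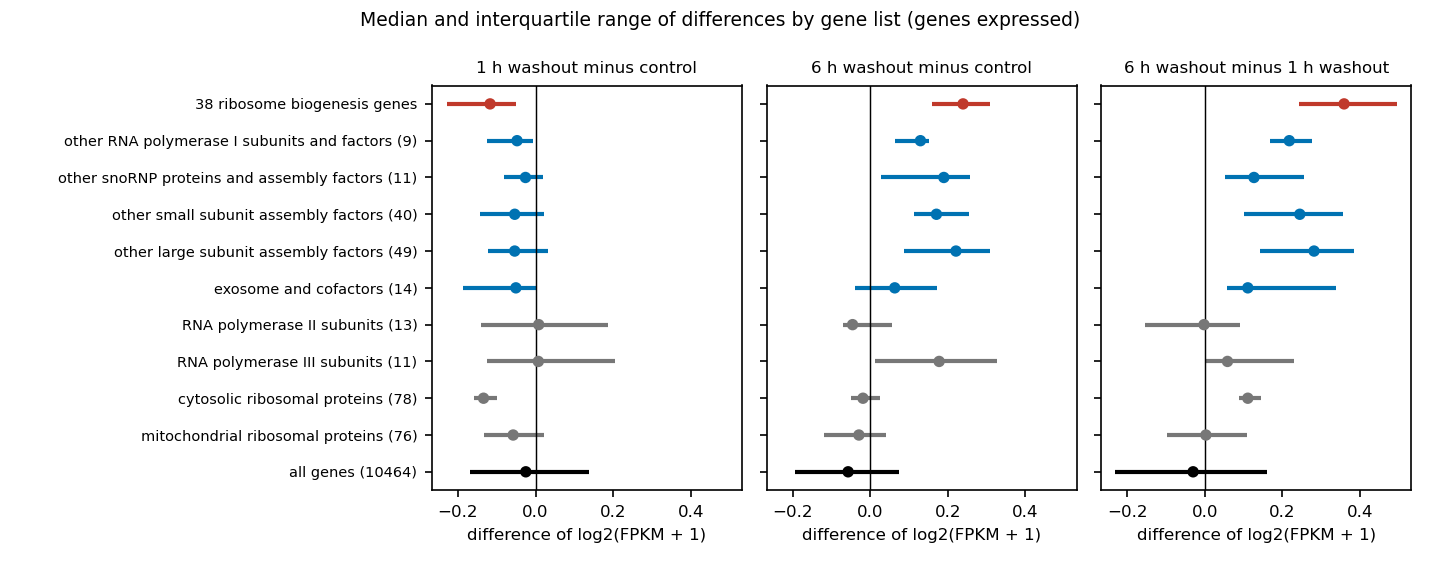
Median (point) and interquartile range (bar) of the difference of log2(FPKM + 1) for the 38 biogenesis genes (red), role groups of the wider list (blue), comparison lists (grey) and all expressed genes (black), with the number of expressed genes in brackets. The red median lies at 0.24 at 6 h against the control, right of those of cytosolic ribosomal proteins (-0.02) and of all genes (-0.06).

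The libraries were of similar depth, with an estimated depth in units of 1e6 fragments of 20.8 at 6 h, 20.7 at 1 h and 23.3 in the control, an estimate read from the steps between the lowest FPKM values. Of the 38 genes, 21 had an FPKM inside their own deposited bounds at 6 h, 26 at 1 h and 23 in the control, so the bounds served for their width and for overlap. Outside their own bounds in all 3 libraries were Polr1c, Nop56, Nop58, Fbl, Nhp2, Ncl, Rrp9, Nop2, Nop16, Pes1, Ddx21 and Ddx18. Of 7 muscle markers, Des, Itga7, Cdh15, Chrna1 and Myf5 had between 4.81 and 87.0 FPKM in the 3 libraries, while the defining factors Myod1 and Myog had at most 0.295 and 0.625 FPKM. Cdh15, a cadherin of muscle precursors, had 87.0 FPKM at 6 h, 41.2 at 1 h and 27.4 in the control, and Myf5 had 8.51 FPKM at 6 h, 26.4 at 1 h and 11.4 in the control. The part of such shifts in the differences above was not tested. Of 10 markers of other cell types, Pdgfra was the highest, at most 1.41 FPKM, and Cdh5, Ptprc, Epcam, Lum and Sox10 were listed at 0 throughout. The loci of 7 of the 38 genes overlapped 8 other genes in the files, 3 of which (Srr, Carf and Glt8d1) were listed at 0 in every library. Idh3b overlaps Nop56, Mpp1 overlaps Dkc1 and Rmnd5b overlaps Nhp2. The strand setting is not given, and whether fragments were shared between such pairs was not tested. Inside the loci of 6 members, Nop56, Nop58, Ncl, Wdr43, Tsr1 and Gnl3, the files list 11 small nucleolar RNAs, of which 10 were at 0 in all 3 libraries. The other, Snora75 in Ncl, was listed at 17.1 FPKM at 1 h and at 0 at 6 h and in the control. Polyadenylated libraries hold few such RNAs.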

How the data were processed

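Per the labels' protocols, RNA was isolated with RNeasy, and Illumina libraries with barcodes were built from its polyadenylated part. The deposited FPKM values and their lower and upper bounds were made by the authors with TopHat and Cufflinks, with FastQC, on mm9, per the submitters' processing notes. Their versions and settings, the annotation and the strand setting were not given in the sources used here. Each library table had 23807 rows, and the series table held equal FPKM in all of them (0 rows differed). Its columns were matched to libraries by the titles.

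Rows with the same symbol were summed, giving 23298 symbols. Differences are log2(FPKM + 1) in 1 library minus another, which understates differences of low genes, taken over the 10464 genes averaging 1 FPKM or more. Counts past 1.2-fold, 1.5-fold and 2-fold use this scale, and ratios use FPKM without the pseudocount. With 1 library per group no test was run. Intervals of ratios combine the relative widths of both deposited 95% bounds. FPKM lay outside its own bounds for 20.0% of rows above 1 FPKM at 6 h, 19.9% at 1 h and 21.5% in the control. Locus starts were taken as counted from 0, because for 9264 of 21480 symbols the span without adding 1 matched the length of the gene in GRCm38.p6, and 1 was added; that build served only for lengths and promoters.

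Members, lists and thresholds were chosen with earlier results of these data known. Values in every library are given for the RNA polymerase I genes and the 4 highest and 4 lowest members of each comparison, with other members under their role. For the 3 highest and 3 lowest genes of the wider list in each comparison, ratios or the levels of the libraries compared are given. The GTGGGAA search and the shares over genes averaging 5 FPKM were added after the data had been seen. The difference calculation was tested on simulated data with planted 2-fold changes and without the pseudocount. Smaller changes, and the scale with the pseudocount, were not tested in this way. Python 3.11.15, numpy, pandas and matplotlib were used. Values of single RNA polymerase III subunits are not reported here.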

Additional observations from a re-analysis of the deposited data

Results flagged for a closer look

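The median of the 38 genes lay on opposite sides of the control at the 2 washout times, with a difference of log2(FPKM + 1) of 0.24 at 6 h and -0.12 at 1 h. Above the control at 6 h and below it at 1 h were 29 genes, while 6 were above it and 3 below it at both times. Over all expressed genes, 38.0% were above the control at 6 h and 54.5% below it at 1 h. The share of all genes with both was not taken, so the 29 have no background beside them. The difference between the times was not tested, because each is 1 library and both are set against the same control library. Polr1b, Tsr1 and Nop16 were at least 1.2-fold from the control in both directions. Of all genes, 8.28% were that much higher at 6 h and 15.7% that much lower at 1 h, and the share with both was not taken. Polr1b differed by 0.31 at 6 h and -0.40 at 1 h, Tsr1 by 0.31 at 6 h and -0.27 at 1 h, and Nop16 by 0.31 at 6 h and -0.36 at 1 h.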

How the results depend on the processing

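The 9 results (the median difference and the counts of members at least 1.2-fold higher or lower, in 3 comparisons) were recomputed under 9 alternatives. These were pseudocounts of 0.1 and 5, dropping the filter or raising it to 5 FPKM, scaling libraries to equal medians of the ratio or to equal upper quartiles, the highest row per symbol, rows with status OK, and leaving out the member that differed most. For 4 of these (both changes of the filter, the highest row and status OK) every value was identical, since they left the 38 genes as they were, and 3 of the 9 results are counts of 0 throughout, so these say nothing about stability. Under the other 5, the medians kept their sign and moved by less than the half-width that the bounds give (0.11), and the counts above 0 stayed within 1.5 times. That half-width is typical of a single gene and wide for a median of 38 genes. It is close in size to the median of -0.12 at 1 h against the control, so it is a loose limit there. Medians ranged from 0.32 to 0.39 at 6 h against 1 h, from 0.21 to 0.30 at 6 h against the control and from -0.12 to -0.09 at 1 h against the control. Members at least 1.2-fold higher ranged from 25 to 30 at 6 h against 1 h and from 13 to 20 at 6 h against the control, and those lower at 1 h from 4 to 6. No paired analysis was possible because each group has 1 library. Differences between cultures of 1 condition cannot be seen in these data, and they could be as large as those described.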

Other observations

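Myc, named here because its product is a known activator of these genes and after its value had been seen, had 57.7 FPKM at 6 h, 103 at 1 h and 51.8 in the control. Its ratio to the control was 1.11 (1.05 to 1.19) at 6 h and 1.99 (1.87 to 2.12) at 1 h, and its ratio at 6 h over 1 h was 0.560 (0.527 to 0.594). At 1 h, where Myc stood highest, the median difference of the 38 genes from the control was -0.12, and at 6 h it was 0.24. Whether these levels are related was not tested.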
